A study of Rattus norvegicus with 12 samples.

Results

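The RNA abundance of the general splicing factors was examined in rat PAC1 cells depleted of 3 tissue regulators of splicing. The gene set holds the SR proteins (Srsf genes), the heterogeneous nuclear ribonucleoproteins (hnRNPs, Hnrnp genes), the Tra2 and SRRM proteins and the CLK and SRPK kinases, and its members were chosen by gene symbol, at a time when earlier results of these data were known. Of 33294 genes in the count table, 45 were members: 12 SR, 19 hnRNP, 2 Tra2, 5 SRRM, 4 CLK and 3 SRPK genes. PAC1 is a rat pulmonary artery smooth muscle line, for which the labels give no engineered allele. In each of the 4 groups, 3 libraries of poly(A) RNA were sequenced after transfection of 90 pmol of siRNA, either the control siRNA or one directed at RBPMS, at RBFOX2 or at QKI. According to the labels, transfection was repeated after 24 h and cells were harvested after a further 48 h, whereas the study's methods give other times. All 4 groups came from a single line grown in the more differentiated state, and the study's methods call the replicates biological. The study reports that control cells of this experiment were less differentiated than those of its other RNA sequencing experiment. The labels do not say how the cultures were separated, and p-values measure the spread between these libraries. One siRNA was used for each target, and the 3 knockdowns share the control libraries.

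SR proteins bind exonic enhancers through RNA recognition motifs and recruit the spliceosome through arginine/serine-rich domains. These domains are phosphorylated in the cytoplasm by SRPK kinases, which promotes nuclear import, and in the nucleus by CLK kinases. The hnRNPs package nascent transcripts and many of them repress exon inclusion. Many SR and hnRNP genes carry conserved poison exons, whose inclusion sends the mRNA to nonsense-mediated decay (NMD) and by which the proteins limit their own abundance. RBPMS, RBFOX2 and QKI are more selective regulators, known for their action on muscle exons. Splicing itself, and with it the inclusion of poison exons, was not analysed here.

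The sense strands of the siRNAs, which define the groups, are given 5′ to 3′ from the study's oligonucleotide list:
Control (C2) siRNA: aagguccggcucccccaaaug
RBPMS siRNA: ggcggcaaagccgagaaggcgaaca
RBFOX2 siRNA: gcaaugguucagccuuuua
QKI siRNA: ggacuuacagcuaaacaac

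Libraries held 111 to 152 M counts, of which the members took 0.899 to 1.00%. Each target was low in its own knockdown. Rbpms fell from 40.7 to 7.21 CPM (counts scaled to 1 M per library by the library total and its TMM factor) in RBPMS knockdown, Rbfox2 from 154 to 37.3 CPM in RBFOX2 knockdown and Qk, the symbol of QKI, from 233 to 26.6 CPM in QKI knockdown. The targets also moved in the other knockdowns. Rbpms was at 23.1 CPM after RBFOX2 and 29.0 CPM after QKI knockdown. Qk was at 174 CPM after RBFOX2 and 265 CPM after RBPMS knockdown, and Rbfox2 at 142 CPM after RBPMS and 139 CPM after QKI knockdown. The 8 smooth muscle markers summed to 2099 to 2163 CPM in control and to 1058 to 1171 CPM after RBPMS, 815 to 914 CPM after RBFOX2 and 1419 to 1509 CPM after QKI knockdown. This sum was carried by Acta2, Tagln and Myl9, and 2 of the 8 were higher in each knockdown (Myh11 with Des in RBPMS and QKI knockdown and with Smtn in RBFOX2 knockdown), while 6, 5 and 5 were lower. Summed markers of endothelium were at 7.49 to 9.09 CPM in control and 7.84 to 7.95 CPM after RBPMS knockdown. They were lower after RBFOX2 (4.31 to 4.82 CPM) and QKI knockdown (5.18 to 5.46 CPM). Those of leukocytes were low but moved with the groups, from 1.46 to 1.56 CPM in control to 5.43 to 5.96 CPM after QKI knockdown, where Csf1r rose by 3.17 and Cd68 by 0.93 on the log2 scale. Those of epithelium were at 29.5 to 31.7 CPM in control and 72.0 to 73.9 CPM after RBFOX2 knockdown, and Epcam and Cdh1, each below 1 CPM, rose by 2.62 and 2.23 after QKI knockdown. All 8 smooth muscle markers exceeded 3 counts in every group. The part of these marker changes in the results was not tested. In bulk RNA, a change in the cells present and a change in RNA per cell cannot be told apart.

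With TMM scaling, the summed abundance of the members was highest after RBPMS knockdown. It was 9253 ± 108 CPM in control (SD, n = 3), 10408 ± 62.0 CPM after RBPMS knockdown, 8905 ± 124 CPM after RBFOX2 knockdown and 9624 ± 37.3 CPM after QKI knockdown. The libraries of each knockdown lay apart from those of control, 12.5% higher in the mean for RBPMS and 4.02% for QKI knockdown, and the sum fell by 3.76% for RBFOX2 knockdown. These sums depended on scaling. As a share of all counts, the members took 0.899 to 0.916% in control and 0.901 to 0.925% after RBFOX2 knockdown, which overlapped, and 0.988 to 1.00% after RBPMS and 1.00% after QKI knockdown, both above control.

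By class, the SR genes summed to 1866 ± 13.1 CPM in control, against 2206 ± 37.9 CPM after RBPMS, 1880 ± 28.0 CPM after RBFOX2 and 2025 ± 11.0 CPM after QKI knockdown, so that the RBFOX2 libraries overlapped with control. As shares of all counts, the SR genes took 0.182 to 0.185% in control and 0.190 to 0.195% after RBFOX2 knockdown, without overlap, and the mean after QKI knockdown (0.211%) was slightly above that after RBPMS knockdown (0.210%). The hnRNP genes summed to 6111 ± 80.5 CPM in control, against 6853 ± 66.0, 5689 ± 90.3 and 6201 ± 24.0 CPM in the same order, and here the QKI libraries overlapped with control. As shares of all counts, the hnRNP genes stayed lower after RBFOX2 knockdown (0.575 to 0.592% against 0.593 to 0.606% in control), and the QKI libraries (0.646 to 0.648%) no longer overlapped. The SRPK sum was above all control libraries in each knockdown under both scalings, and in CPM it went from 175 ± 1.93 to 203 ± 3.01, 211 ± 2.30 and 199 ± 3.00. Sums are dominated by abundant genes and are not corrected for gene length, so the classes are not compared with each other.

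**Figure D1:**
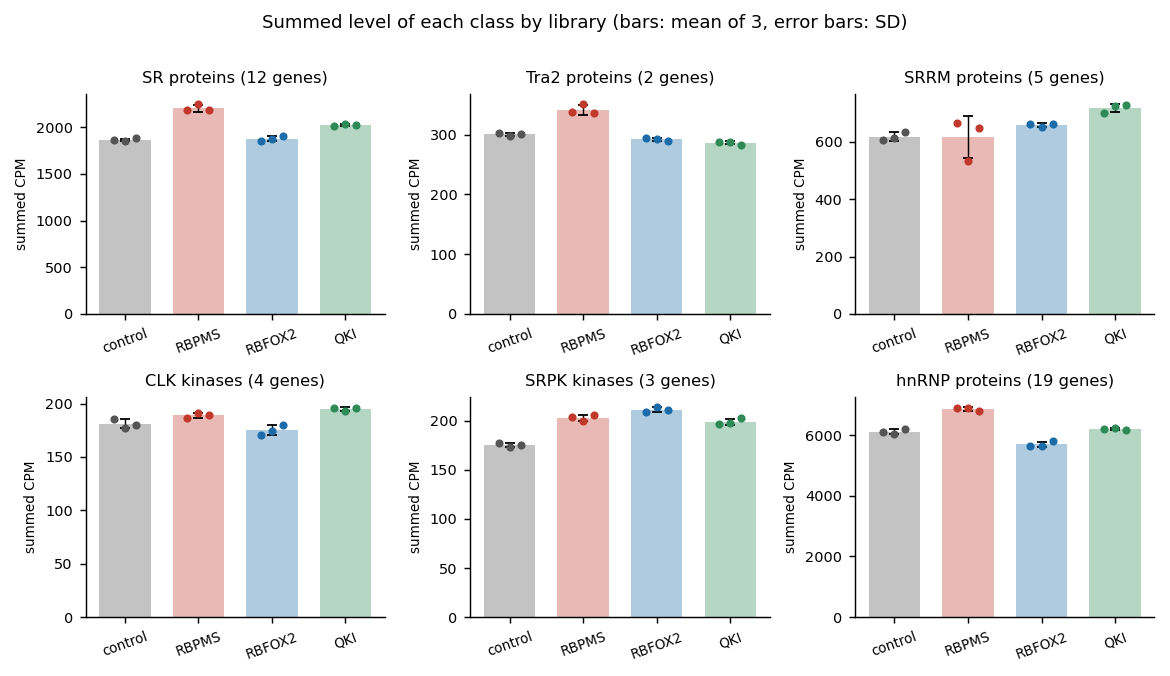
Summed CPM (y axis, from 0) of the members of each class in the 12 libraries, by group (x axis: control siRNA and the 3 knockdowns). Points are libraries, bars the mean of 3 and error bars the SD. With TMM scaling the SR and hnRNP sums were highest in RBPMS knockdown, at 2206 and 6853 CPM, the SRPK sum was above control in each knockdown, and 1 RBPMS library was low in the SRRM sum.

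Large changes were rare among the members. Of the 45, 43 had enough counts to be tested. Srsf8 (2 counts in all libraries together) and Srsf12 (12 counts) did not. With edgeR's quasi-likelihood test and the study's thresholds, which ask for more than a 2-fold change besides an adjusted p under 0.05, 2 members were called in RBPMS knockdown, where 9.66% of all 18438 tested genes were called: Hnrnpab rose and Srrm3, with 20 counts in the 3 control libraries together, fell. In RBFOX2 knockdown 0 of 43 were called against 11.7% of all genes, also 0 at an unadjusted p under 0.05 with the same fold threshold and 0 by DESeq2. In QKI knockdown 2 were called against 17.5% of all genes: Hnrnpul2 fell and Srrm5, with 29 counts in control, rose. Srrm3 and Srrm5 are described with the low-count genes.

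Most members moved by less than 2-fold, but many passed an adjusted p under 0.05, as did most genes tested, at a common dispersion of 0.00241 between replicates. In RBPMS knockdown 22 of 43 members were higher and 8 lower, against 30.4% and 29% of all tested genes. In RBFOX2 knockdown 7 were higher and 13 lower, against 30.1% in each direction. In QKI knockdown 23 were higher and 9 lower, against 32.9% and 34%. Since 38 of the members had a mean of at least 20 CPM, they were also set beside the 7819 genes of that abundance. There 21 members were higher and 7 lower in RBPMS knockdown against 41.4% and 35.2% of genes, 7 and 12 in RBFOX2 knockdown against 33.9% and 41.9%, and 22 and 8 in QKI knockdown against 38.7% and 42.3%. The upward share of members was therefore above that of similar genes in RBPMS and QKI knockdown and below it in RBFOX2 knockdown, a description without a test. The RBFOX2 split depended on scaling. With library totals alone, which put the median of all genes at 0.07 on the log2 scale, 12 members were higher and 13 lower. Of all tested genes, 34.7% were higher and 26.2% lower with that scaling. The authors' normalised values gave 12 members in each direction, beside 5531 higher and 5362 lower of all 18438 tested genes.

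**Figure D2:**
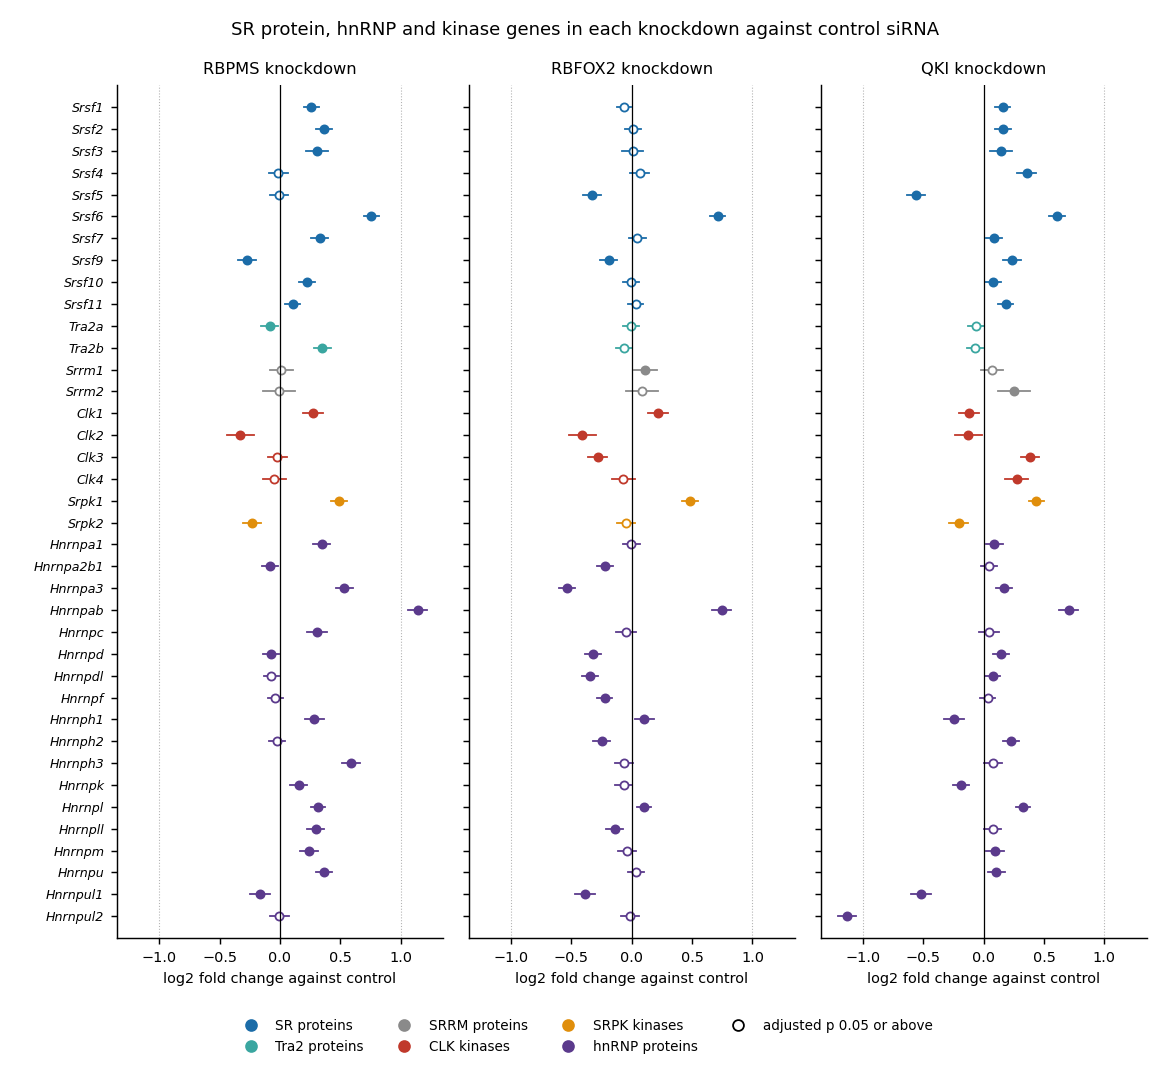
Log2 fold change against control (x axis) of the 38 members with a mean of at least 20 CPM (y axis, coloured by class) in each knockdown, with 95% confidence intervals. Filled points passed an adjusted p under 0.05 in edgeR's quasi-likelihood test and open points did not, and dotted lines mark a 2-fold change. Only Hnrnpab in RBPMS knockdown, at 1.14, and Hnrnpul2 in QKI knockdown, at -1.13, lay beyond them.

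In size, the members changed less than other abundant genes in RBFOX2 and QKI knockdown, again without a test. The median absolute log2 fold change of the 38 members was 0.25 after RBPMS, 0.09 after RBFOX2 and 0.16 after QKI knockdown, against 0.24, 0.23 and 0.30 for all genes of at least 20 CPM. A change above 0.5 on the log2 scale, with an adjusted p under 0.05 and libraries that did not overlap with control, was seen in 4 of 38 members against 19.4% of such genes in RBPMS knockdown, in 3 against 20.4% in RBFOX2 knockdown and in 5 against 30.2% in QKI knockdown. The members behind these counts are given with every library below. Outside 4 genes with few counts, the SE of a log2 fold change that passed the test lay between 0.028 and 0.063, and members that did not pass lay between -0.07 and 0.09.

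**Figure D3:**
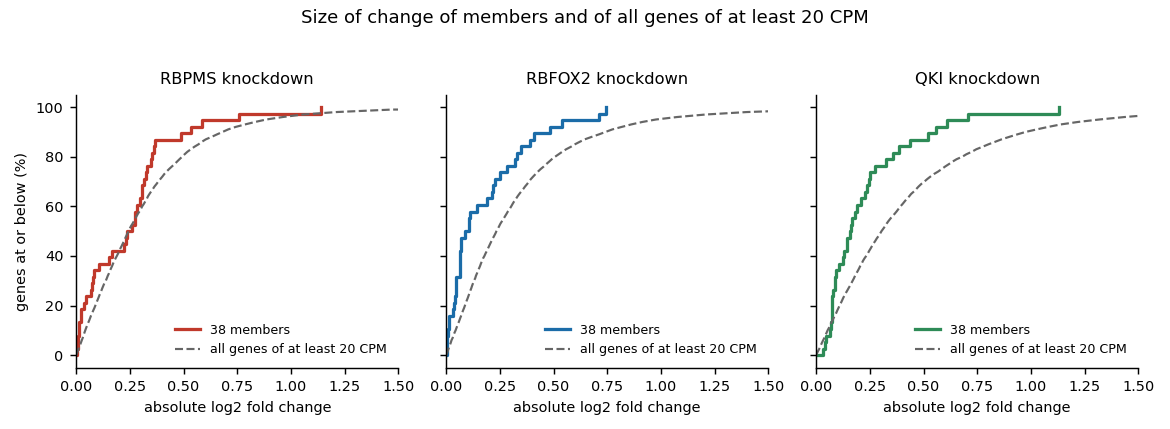
Share of genes (y axis, %) at or below an absolute log2 fold change (x axis) in each knockdown, for the 38 members (solid) and for all 7819 genes of at least 20 CPM (dashed). In RBFOX2 and QKI knockdown the members' curve lay above that of all genes over most of the range, with medians of 0.09 against 0.23 and 0.16 against 0.30, and in RBPMS knockdown the medians were 0.25 and 0.24.

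Among the SR genes, Srsf6 had the largest rise in each knockdown. Srsf6 encodes SRp55, an exonic enhancer binding protein. Its level was 126, 124 and 131 CPM in the control libraries, 213, 215 and 216 CPM after RBPMS knockdown, 206, 208 and 210 CPM after RBFOX2 knockdown and 191, 194 and 195 CPM after QKI knockdown. All 9 knockdown libraries lay above the control libraries. The log2 fold changes were 0.76 ± 0.030 (SE; adjusted p = 1.58e-12), 0.71 ± 0.030 (2.38e-12) and 0.61 ± 0.030 (9.49e-12) in edgeR's test. Compared directly, RBPMS and RBFOX2 knockdown differed by 0.05 (95% interval -0.02 to 0.11, adjusted p = 0.200), while the QKI level was lower than both, by 0.15 and 0.10 on the log2 scale (adjusted p = 3.5e-04 and 0.00583). With library totals alone the difference between RBPMS and QKI knockdown was 0.02 and did not pass (edgeR adjusted p = 0.571).

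Srsf5, which encodes SRp40, was the SR gene with the largest fall. It stood at 257, 250 and 255 CPM in control and at 241, 260 and 255 CPM after RBPMS knockdown, at 196, 201 and 209 CPM after RBFOX2 knockdown and at 169, 175 and 173 CPM after QKI knockdown. The RBPMS libraries spanned the control range, whereas the RBFOX2 and QKI libraries lay below it without overlap. The log2 fold changes were -0.33 ± 0.036 in RBFOX2 (adjusted p = 3.75e-07) and -0.56 ± 0.036 in QKI knockdown (2.55e-10). In RBPMS knockdown it was -0.01 ± 0.035, with a sign that turned when 1 RBPMS library was left out (0.02).

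After RBPMS knockdown 7 of 10 tested SR genes were higher and 1 lower, beside 41.4% and 35.2% of all genes of at least 20 CPM. With library totals alone 6 were higher and 1 lower, beside 27.1% and 32.2% of all tested genes. Srsf2 (SC35, log2 fold change 0.36), Srsf7 (9G8, 0.33), Srsf3 (SRp20, 0.31), Srsf1 (SF2/ASF, 0.26), Srsf10 (0.22) and Srsf11 (0.11) rose beside Srsf6, although the call for Srsf11 was lost with library totals alone, without a filter and in the authors' normalised table. Srsf9 (SRp30c) fell by 0.27. After RBFOX2 knockdown the SR genes other than Srsf6, Srsf5 and Srsf9 (-0.19) did not pass. There 33.9% of genes of at least 20 CPM were higher and 41.9% lower. With library totals alone 4 SR genes were higher, beside 34.7% of all tested genes. After QKI knockdown 9 of 10 SR genes were higher and Srsf5 lower, beside 38.7% and 42.3% of all genes of at least 20 CPM. The rises besides Srsf6 were led by Srsf4 (SRp75, 0.36), Srsf9 (0.23), Srsf11 (0.18), Srsf2 (0.16) and Srsf1 (0.16). The rises of Srsf7 (0.09) and Srsf10 (0.07) in QKI knockdown lost their call without a filter and when single libraries were left out. Srsf9 thus differed in sign: 102, 104 and 107 CPM in control, 82.8, 89.3 and 87.1 CPM after RBPMS, 91.6, 91.7 and 90.9 CPM after RBFOX2 and 120, 125 and 123 CPM after QKI knockdown, with direct differences from QKI knockdown of -0.51 for RBPMS and -0.43 for RBFOX2 knockdown (adjusted p = 1.04e-09 and 6.6e-09 in edgeR's test).

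The Tra2 genes encode SR-like activators of exon inclusion. Tra2b stood at 177, 178 and 173 CPM in the control libraries and rose to 220, 234 and 219 CPM after RBPMS knockdown, a log2 fold change of 0.35 ± 0.032 (edgeR adjusted p = 5.48e-08). Its direct differences from RBFOX2 and QKI knockdown were 0.42 each (adjusted p = 1.03e-08 and 4.52e-09), and those knockdowns did not pass against control. Tra2a fell by 0.08 in RBPMS knockdown, a call lost in a fit of these 6 libraries and when 1 of 4 libraries was left out. Of the SRRM genes, which encode serine/arginine repetitive coactivators, Srrm2, a scaffold of nuclear speckles, rose by 0.25 ± 0.063 in QKI knockdown, from 484, 493 and 512 CPM to 574, 595 and 600 CPM. In RBPMS knockdown Srrm2 was at 538, 420 and 520 CPM, so that 1 library was far below the others, and neither it nor Srrm1, low in the same library, passed. Srrm1 rose by 0.11 in RBFOX2 knockdown, a call lost when any 1 of the 6 libraries was left out, with RLE size factors and in DESeq2.

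Of the kinases, Srpk1 rose in each knockdown. Srpk1, the main cytoplasmic SR protein kinase, was at 98.3, 96.5 and 97.3 CPM in control, at 137, 137 and 136 CPM after RBPMS knockdown, at 135, 137 and 136 CPM after RBFOX2 knockdown and at 130, 130 and 135 CPM after QKI knockdown. No knockdown library overlapped with control. The log2 fold changes were 0.49, 0.48 and 0.44, each ± 0.030 (edgeR adjusted p = 3.51e-10, 3.25e-10 and 7.3e-10), and the 3 direct differences between knockdowns were between 0.01 and 0.05 and did not pass, with 95% intervals from -0.06 at the lowest to 0.12 at the highest. With library totals alone, however, Srpk1 was lower after RBPMS than after RBFOX2 knockdown by 0.09 and than after QKI knockdown by 0.08 (edgeR adjusted p = 0.0159 and 0.0346). Srpk2 fell by 0.23 in RBPMS and 0.21 in QKI knockdown and did not pass in RBFOX2 knockdown.

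The 4 CLK genes, whose products phosphorylate SR proteins in the nucleus, did not move as a class. Clk1 rose by 0.27 and 0.21 in RBPMS and RBFOX2 knockdown and fell by 0.12 in QKI knockdown, where the call was lost with library totals alone and in the normalised table. Clk3 stood at 52.1, 50.9 and 51.7 CPM in control, at 42.3, 41.8 and 43.1 CPM after RBFOX2 knockdown and at 66.4, 67.8 and 67.7 CPM after QKI knockdown, a fall by 0.28 and a rise of 0.38 on the log2 scale. The direct difference between the 2 knockdowns was -0.67 ± 0.037 (edgeR adjusted p = 4.49e-11). Clk4 rose by 0.27 in QKI knockdown. Clk2 fell by 0.33 in RBPMS and by 0.41 in RBFOX2 knockdown. Its fall by 0.13 in QKI knockdown lost its call with library totals alone, in DESeq2 and in the normalised table.

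The hnRNP genes gave the largest changes among abundant members. Hnrnpab, an hnRNP of the A/B group that also binds DNA at CArG-box elements, rose in each knockdown and most after RBPMS knockdown. The control libraries held 64.9, 64.7 and 64.9 CPM, the RBPMS libraries 140, 150 and 139 CPM, the RBFOX2 libraries 109, 105 and 112 CPM and the QKI libraries 107, 104 and 106 CPM. All knockdown libraries were above control and all RBPMS libraries above those of the other knockdowns. The log2 fold changes were 1.14 ± 0.037, 0.75 ± 0.037 and 0.71 ± 0.037 (edgeR adjusted p = 1.38e-13, 1.71e-11 and 1.86e-11). RBPMS knockdown exceeded RBFOX2 knockdown by 0.40 and QKI knockdown by 0.44 (adjusted p = 8.51e-08 and 1.57e-08), and the latter pair differed by 0.04 (95% interval -0.04 to 0.12).

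Hnrnpa3, an hnRNP of the A/B group, moved in opposite directions. It was at 163, 158 and 159 CPM in control, at 234, 226 and 234 CPM after RBPMS knockdown, at 108, 109 and 113 CPM after RBFOX2 knockdown and at 180, 177 and 181 CPM after QKI knockdown. The 4 groups did not overlap. It rose 1.45-fold in RBPMS knockdown (log2 fold change 0.53 ± 0.032, edgeR adjusted p = 2.34e-10) and fell 1.45-fold in RBFOX2 knockdown (-0.54 ± 0.032, 1.82e-10), with a rise of 0.17 in QKI knockdown. The direct difference between RBPMS and RBFOX2 knockdown was 1.07 ± 0.032 (adjusted p = 5.31e-14) and that between RBFOX2 and QKI knockdown -0.70 ± 0.032 (2.93e-12).

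Hnrnpul2, an hnRNP U-like protein, changed in QKI knockdown and did not pass in the others. The control libraries were at 267, 273 and 277 CPM, the RBPMS libraries at 279, 257 and 278 CPM, the RBFOX2 libraries at 264, 269 and 274 CPM and the QKI libraries at 121, 125 and 126 CPM. The first 3 groups overlapped, and the QKI libraries lay below all of them. The fall in QKI knockdown was 2.19-fold (log2 fold change -1.13 ± 0.037, edgeR adjusted p = 3.21e-14), and the direct differences from it were 1.13 for RBPMS and 1.12 for RBFOX2 knockdown (5.71e-14 and 4.11e-14). The values near 0 in RBPMS (-0.0046) and RBFOX2 knockdown (-0.02) turned sign under other settings. Its paralogue Hnrnpul1 was at 298, 301 and 308 CPM in control, 286, 256 and 266 CPM after RBPMS, 233, 226 and 233 CPM after RBFOX2 and 217, 210 and 204 CPM after QKI knockdown, below control without overlap in each. Its log2 fold changes were -0.17 ± 0.039, -0.39 ± 0.039 and -0.52 ± 0.039 (edgeR adjusted p = 0.00141, 1.52e-07 and 2.41e-09).

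Hnrnph3, of the H/F group that binds G-rich runs, rose in RBPMS knockdown. Its libraries held 55.9, 54.5 and 55.0 CPM in control and 82.5, 85.0 and 80.7 CPM after RBPMS knockdown, against 52.8, 51.5 and 53.9 CPM after RBFOX2 and 58.6, 59.4 and 56.5 CPM after QKI knockdown. The RBPMS libraries lay above all others. The log2 fold change was 0.59 ± 0.035 (edgeR adjusted p = 2.34e-10), with values of -0.06 and 0.08 that did not pass in RBFOX2 and QKI knockdown. Direct differences from RBPMS knockdown were 0.65 for RBFOX2 and 0.51 for QKI knockdown (adjusted p = 1.05e-10 and 1.12e-09).

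**Figure D4:**
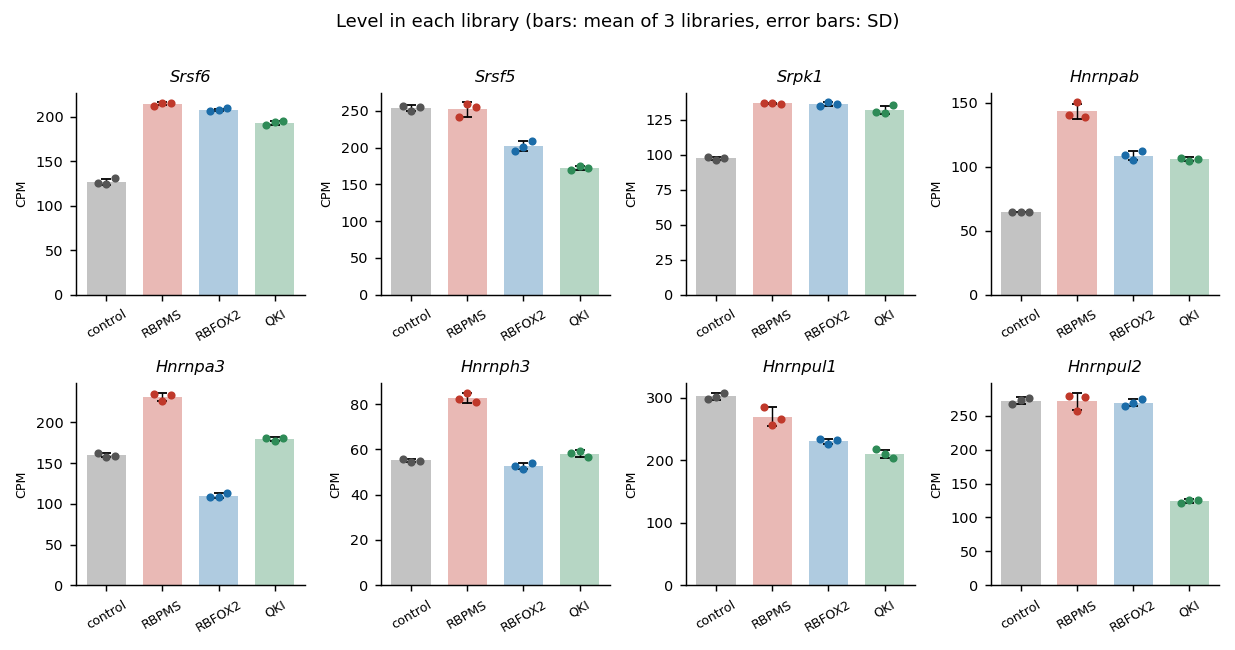
CPM (y axes, from 0) in each of the 12 libraries by group (x axis) for 8 members: the 7 with at least 20 CPM that changed by over 0.5 on the log2 scale without overlap with control, and Srpk1. Points are libraries, bars the mean of 3 and error bars the SD. Srsf6, Srpk1 and Hnrnpab were above control in each knockdown, Hnrnpa3 was high in RBPMS and low in RBFOX2 knockdown, and Hnrnpul2 was low in QKI knockdown.

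The remaining hnRNP genes changed by at most 0.42 on the log2 scale. After RBPMS knockdown 11 of 19 hnRNP genes were higher and 3 lower, beside 41.4% and 35.2% of all genes of at least 20 CPM. With library totals alone 11 were higher and 5 lower, beside 27.1% and 32.2% of all tested genes. Hnrnpu, a nuclear matrix and chromatin RNA binding protein, rose by 0.36, Hnrnpa1, a splicing repressor, by 0.35, Hnrnpl by 0.32, Hnrnpc, which binds uridine tracts, by 0.31 and Hnrnpll by 0.30. Hnrnph1 (0.28), Hnrnpm (0.24) and Hnrnpk (0.15, not called in the normalised table) followed. Calls for small falls of Hnrnpa2b1 (-0.08) and Hnrnpd (-0.07) were lost under several alternatives.

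After RBFOX2 knockdown 3 hnRNP genes were higher and 9 lower, beside 33.9% and 41.9% of all genes of at least 20 CPM. The authors' normalised table gave 5 and 7 hnRNP genes, beside 5531 and 5362 of all 18438 tested genes. Hnrnpdl fell by 0.35, Hnrnpd (AUF1), a binder of AU-rich elements, by 0.32, Hnrnph2 by 0.25, Hnrnpf by 0.23, Hnrnpa2b1 by 0.22, Hnrnpr by 0.20 and Hnrnpll by 0.14, of which the calls for Hnrnpf, Hnrnpa2b1 and Hnrnpll were lost in some forms of the normalised table. Hnrnpl rose by 0.10, and the rise of Hnrnph1 (0.10) was lost on leaving out any of 4 libraries. After QKI knockdown 9 hnRNP genes were higher and 5 lower, beside 38.7% and 42.3% of all genes of at least 20 CPM. With library totals alone 14 were higher and 5 lower, beside 38.7% and 29.4% of all tested genes. Hnrnpl rose by 0.32, Hnrnph2 by 0.23 and Hnrnpd by 0.14, while Hnrnpr fell by 0.42, Hnrnph1 by 0.25 and Hnrnpk, a poly(C) binding protein, by 0.19. Rises of Hnrnpu (0.10), Hnrnpm (0.09), Hnrnpa1 (0.09) and Hnrnpdl (0.07) lost their call when single libraries were left out.

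Direct contrasts gave the difference between knockdowns without the shared control. Between RBPMS and RBFOX2 knockdown, 18 of 19 hnRNP genes were higher after RBPMS knockdown, the exception being Hnrnpul2, which did not pass. Of all tested genes, 28.8% were higher in this contrast with TMM. The hnRNP count was 16 with library totals alone, beside 20.9% of all tested genes. It was 14 with 1 lower in the normalised table, beside 26.7% and 28.6%. Of the 38 members of at least 20 CPM, 26 were higher and 2 lower, against 44.2% and 29.5% of such genes. Over all 43, 27 were higher and 2 lower, beside 28.8% and 27.9% of all tested genes. Library totals alone gave 24 and 7, beside 20.9% and 36.1% of all tested genes. That scaling shifted the median of all genes by -0.11, so that the split depends in part on scaling. The median member difference was 0.22, and 0.13 with library totals alone. Past 2-fold, 1 member differed, Hnrnpa3, against 7.52% of all genes, at 1.07 with TMM and below 1 with library totals alone.

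Between RBPMS and QKI knockdown, 21 of 38 members were higher after RBPMS knockdown and 12 lower, against 44.4% and 33.1% of genes of at least 20 CPM. Over all 43 the split was 22 and 13 and turned to 17 and 18 with library totals alone, with a median shift of all genes of -0.12, where 23.8% of all tested genes were higher and 38.8% lower. Hnrnpul2 and Srrm3 passed 2-fold, against 12.2% of all genes. Between RBFOX2 and QKI knockdown, 8 of 38 were higher after RBFOX2 knockdown and 22 lower, against 39.7% and 42.9%, and Hnrnpul2, Srrm3 and Srrm5 passed 2-fold, against 18.4% of all genes. The difference in Hnrnph1 was 0.53 between RBPMS and QKI and 0.35 between RBFOX2 and QKI knockdown (edgeR adjusted p = 1.8e-09 and 2.64e-07).

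**Figure D5:**
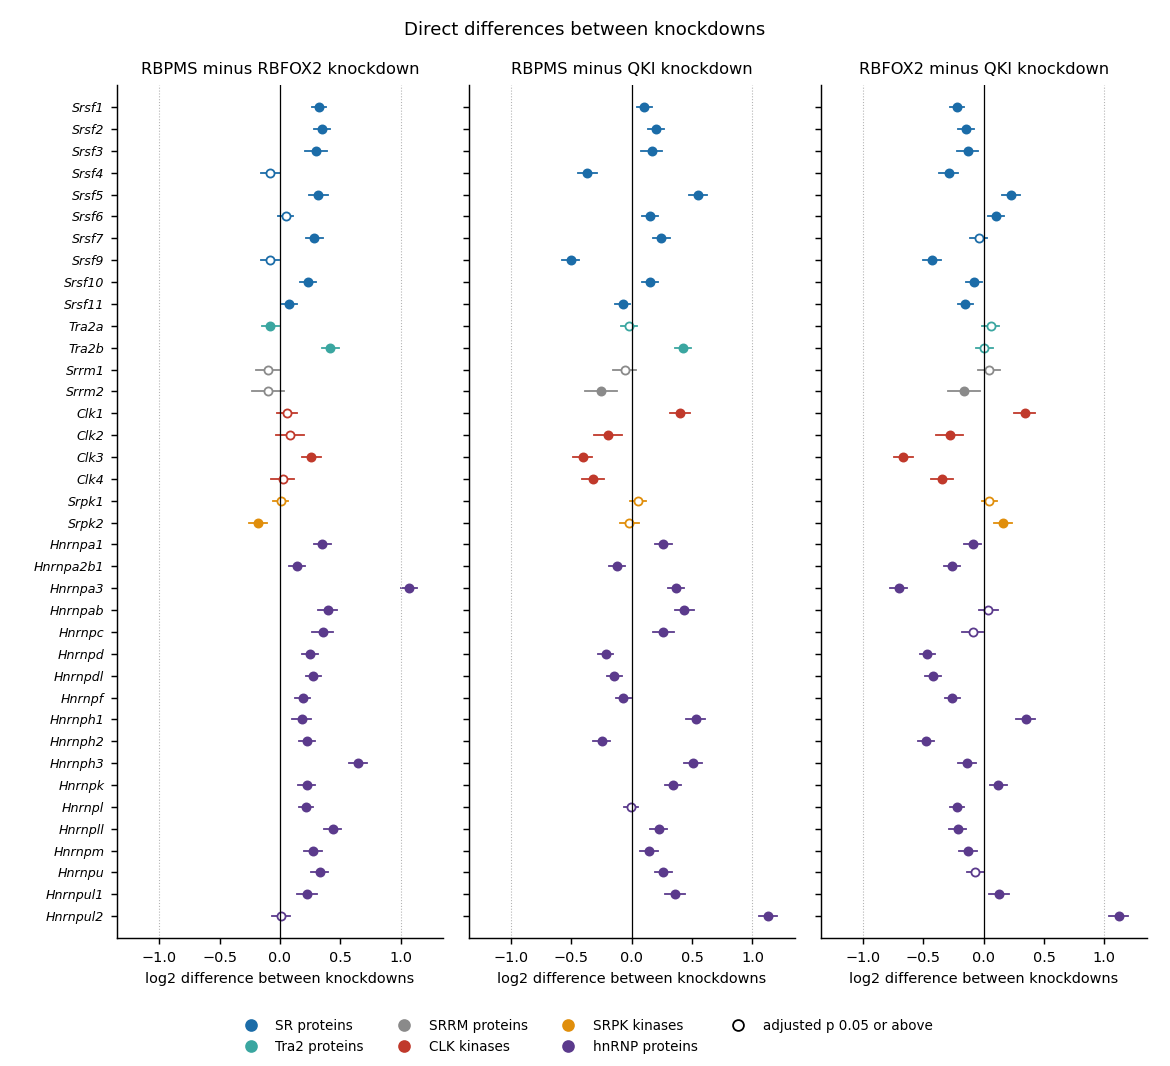
Log2 difference between knockdowns (x axis) of the 38 members with a mean of at least 20 CPM (y axis, coloured by class), with 95% confidence intervals, filled where edgeR's adjusted p was under 0.05. In the first panel 26 members lay above 0 past the test and 2 below, with Hnrnpa3 at 1.07, and Hnrnpul2 lay at 1.13 and 1.12 in the panels against QKI knockdown.

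The 4 members with few counts gave less certain values. Srrm3, a neural coactivator of microexons, had 4, 10 and 6 counts in control, 0, 0 and 2 after RBPMS knockdown, 1, 4 and 2 after RBFOX2 knockdown and 15, 10 and 12 after QKI knockdown. In RBPMS knockdown the ratio to control was 0.116, with an exact counting interval of 0.0131 to 0.477. The RBPMS call (edgeR adjusted p = 0.0110) was lost without RBPMS library 2 (0.0601), and RBFOX2 and QKI knockdown did not pass. Srrm5 had 4, 12 and 13 counts in control, 22, 4 and 18 after RBPMS, 11, 12 and 8 after RBFOX2 and 31, 38 and 23 after QKI knockdown, where it rose by 1.79 ± 0.533 (edgeR adjusted p = 0.00707). Srrm4 passed in RBPMS knockdown (0.52, adjusted p = 0.0429), a call lost in DESeq2, with library totals alone, in the normalised table and when 1 of 4 libraries was left out, and Srpk3 did not pass. Intervals from counts cover counting error only and take each count as a separate event. Of values from 1 to 19, 68.1% were even, and whether reads were counted in pairs was not tested. If they were, the intervals are too narrow.

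Genes that share sequence or position with a member limit some values, since the counting of shared reads and its strand setting are not stated. In the RefSeq annotation of GRCr8, a later build than the one used for counting, 10 members overlap a protein-coding gene. Phykpl, which overlaps Hnrnpab, had 7.85 CPM in control and 8.50, 8.46 and 9.54 CPM after RBPMS, RBFOX2 and QKI knockdown. Rufy2, which overlaps Hnrnph3, had 18.8 CPM in control and 17.5, 15.4 and 8.75 CPM after RBPMS, RBFOX2 and QKI knockdown. Its part in the Hnrnph3 values was not tested. Zfp428, which overlaps Srrm5, was at 11.2 CPM after QKI knockdown and 10.6 CPM in control, above the level of Srrm5 in both. Closely related hnRNP genes such as Hnrnpa1, Hnrnpa2b1 and Hnrnpa3, or Hnrnph1 and Hnrnph2, have processed copies or similar exons, and their values are uncertain to the extent that shared reads were split or dropped.

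Promoters were available from RefSeq (GRCr8) for 42 of 45 members, as 47 windows from 250 bases before to 50 after a transcription start. Their median GC content was 62.3%, against 51.7% over 33469 windows of the same length. A GC box (GGGCGG, either strand) occurred in 68.1% of member windows and in 33.1% of all, a CCAAT box (CCAAT, either strand) in 55.3% and 37.5%, and TATAAA on either strand in 19.1% and 14.2%. The 33469 windows were not matched to the members by expression or GC content, so a trait particular to the members cannot be read from these shares. A match is a description of the letters and not of a bound site. The windows of the 4 members whose abundance differed most clearly between groups are shown, with GC and CCAAT boxes on either strand in capitals:
Srsf6, chr3:172008822-172009121, plus strand: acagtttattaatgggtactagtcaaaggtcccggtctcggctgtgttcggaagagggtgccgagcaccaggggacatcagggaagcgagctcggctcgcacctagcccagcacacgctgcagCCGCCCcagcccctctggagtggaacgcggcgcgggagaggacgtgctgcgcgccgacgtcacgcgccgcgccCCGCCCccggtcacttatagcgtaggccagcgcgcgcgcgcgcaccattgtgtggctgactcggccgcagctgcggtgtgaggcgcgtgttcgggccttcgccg
Hnrnpab, chr10:36363849-36364148, minus strand: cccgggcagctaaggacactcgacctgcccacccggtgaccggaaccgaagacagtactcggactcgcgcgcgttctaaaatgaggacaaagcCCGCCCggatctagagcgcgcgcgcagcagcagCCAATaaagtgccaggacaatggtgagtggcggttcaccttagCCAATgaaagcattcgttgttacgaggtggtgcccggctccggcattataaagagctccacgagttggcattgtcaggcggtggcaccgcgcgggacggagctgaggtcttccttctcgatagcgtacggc
Hnrnpa3, chr3:80985684-80985983, plus strand: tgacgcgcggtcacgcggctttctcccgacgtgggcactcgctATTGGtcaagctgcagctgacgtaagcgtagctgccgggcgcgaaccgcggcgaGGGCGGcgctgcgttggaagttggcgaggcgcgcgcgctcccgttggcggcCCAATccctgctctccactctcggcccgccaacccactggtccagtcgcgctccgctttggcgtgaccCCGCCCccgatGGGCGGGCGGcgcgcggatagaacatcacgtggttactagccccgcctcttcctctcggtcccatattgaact
Hnrnpul2, chr1:215142500-215142799, plus strand: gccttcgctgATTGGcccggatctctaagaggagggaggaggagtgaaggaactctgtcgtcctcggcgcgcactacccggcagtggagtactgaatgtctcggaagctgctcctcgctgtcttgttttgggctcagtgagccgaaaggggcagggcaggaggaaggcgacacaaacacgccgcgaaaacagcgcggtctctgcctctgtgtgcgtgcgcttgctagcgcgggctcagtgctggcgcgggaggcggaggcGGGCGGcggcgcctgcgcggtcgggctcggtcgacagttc
Hnrnpa3 held 4 GC boxes and 2 CCAAT boxes, Hnrnpab 1 and 2, Srsf6 2 GC boxes and Hnrnpul2 1 of each.

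The wider splicing machinery was read from 4 lists, which are no members of the set. Of all tested genes, 30.4%, 30.1% and 32.9% were higher and 29%, 30.1% and 34% lower in RBPMS, RBFOX2 and QKI knockdown. With library totals alone 27.1%, 34.7% and 38.7% of them were higher and 32.2%, 26.2% and 29.4% lower. Of the 7819 genes of at least 20 CPM, 41.4%, 33.9% and 38.7% were higher and 35.2%, 41.9% and 42.3% lower in the same order. The counts of each of the 4 lists are to be read beside these shares, without a test. Of 35 core spliceosome genes, 28 were higher and 2 lower in both RBPMS and QKI knockdown and 11 in each direction in RBFOX2 knockdown (15 and 8 with library totals alone), with medians of 0.25, 0.36 and 0.0024 on the log2 scale, against 0.01 over all tested genes in each. Sf3a3, a subunit of the U2 snRNP, rose most in each knockdown, with 47.1 ± 0.976 CPM in control, 103 ± 7.13 CPM after RBPMS, 83.0 ± 2.24 CPM after RBFOX2 and 95.4 ± 1.92 CPM after QKI knockdown. Sf3b5, of the same snRNP, fell by 1.33 in RBFOX2 knockdown, while the largest falls elsewhere were Sf3b2 (-0.23, RBPMS) and Prpf19 (-0.29, QKI).

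Of 16 genes of NMD and the exon junction complex, 10, 9 and 12 were higher and 0, 3 and 1 lower in RBPMS, RBFOX2 and QKI knockdown, with medians of 0.22, 0.16 and 0.20. The count of lower genes in RBPMS knockdown was also 0 at an unadjusted p under 0.05 in edgeR's test and 0 by DESeq2, and 1 with library totals alone. Upf3a, a paralogue of the NMD factor UPF3B, rose most in each, from 21.3 ± 0.567 CPM to 60.1 ± 3.08, 61.4 ± 1.40 and 46.0 ± 1.95 CPM (edgeR adjusted p = 5.21e-14, 1.83e-14 and 5.45e-13). Casc3, a core exon junction protein, fell by 0.52 in RBFOX2 knockdown, and Upf2, which bridges UPF1 and UPF3, fell by 0.84 in QKI knockdown, from 52.5 ± 1.90 to 29.2 ± 0.254 CPM. In each knockdown 1 gene of this list, Upf3a, passed 2-fold.

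Of 23 SR-related proteins, import factors and other kinases, 10, 10 and 14 were higher and 2, 6 and 6 lower in RBPMS, RBFOX2 and QKI knockdown, and with library totals alone 9, 12 and 16 higher and 6, 2 and 5 lower. Their medians were 0.06, 0.07 and 0.18. Bclaf1, an SR-related protein, rose most in RBFOX2 (0.49) and QKI knockdown (0.68), and Luc7l, a U1-associated factor, rose by 0.37 in RBPMS knockdown. Tnpo3, the import receptor of SR proteins, fell by 0.38 in RBFOX2 knockdown, and Cdk13 fell by 0.18 in RBPMS and 0.52 in QKI knockdown. Of 9 hnRNP and related RNA binding proteins under other symbols, 6 were higher in each knockdown and 2, 2 and 1 lower in RBPMS, RBFOX2 and QKI knockdown, with medians of 0.33, 0.18 and 0.25, while library totals alone gave 5, 6 and 8 higher. Ptbp1 (hnRNP I), a repressor of muscle exons, rose by 0.50 in RBPMS knockdown, Taf15 by 0.26 in RBFOX2 and Pcbp1 (hnRNP E1) by 0.39 in QKI knockdown. Rbmx (hnRNP G) fell by 1.98 in QKI knockdown, from 72.1 ± 2.74 to 18.3 ± 0.515 CPM, and the cold-inducible Cirbp (hnRNP A18) fell by 0.36 and 0.23 in RBPMS and RBFOX2 knockdown.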

How the data were processed

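RNA of 12 PAC1 libraries (4 groups of 3, from the labels) was analysed from the raw counts per gene deposited by the authors, made with STAR on mRatBN7.2 and featureCounts with a RefSeq annotation. Whether counting used strand is not given in the sources used here. The submitters' processing notes list STAR 2.5.2a. The study describes reads subsampled to a common depth, whereas totals were 111 to 152 M. Of values from 1 to 19, 68.1% were even, against 50.9% above 1000, so halved counts were an alternative. The deposited normalised signal was quantile normalised by the authors after a noise filter, with an offset of 5 in the values.

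Genes were kept by filterByExpr (18438 of 33294) and tested two-sided with edgeR 4.0.16 in R 4.3.3 (TMM, glmQLFit and glmQLFTest, 12 libraries, 1 coefficient per group, common dispersion 0.00241), with Benjamini-Hochberg adjustment over all tested genes. The SE was the log2 fold change divided by the root of F. The fit was tested on simulated data. An exact permutation test of 3 against 3 cannot give a p below 0.1. Alternatives used RLE factors, library totals, other filters, DESeq2 1.42.0, limma 3.58.1 on the normalised table (log2 of value plus 1 or 10), glmTreat against 0.3, a replicate block, fits of 6 libraries and leaving out each library. No pair of replicates agreed within sampling noise (chi-square per degree of freedom 4.64 to 57.8). The highest values, 57.8 and 45.6, were those of RBPMS library 2 against RBPMS libraries 1 and 3, which gave 9.27 against each other.

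All members are named. Values in every library were due for members past an adjusted p under 0.05 and 0.5 on the log2 scale without overlap with control, and were added for others after their values were seen. From each other list, the genes that rose and fell most are named. From the list of hnRNP and related proteins under other symbols, 1 gene is not reported here and was left out of the counts. Members and lists were chosen with earlier results of these data known.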

Additional observations from a re-analysis of the deposited data

Results flagged for a closer look

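Members that differed between knockdowns by more than 2-fold in a direct contrast (edgeR's quasi-likelihood test, adjusted p under 0.05) are listed here. Hnrnpa3 was higher after RBPMS than after RBFOX2 knockdown by 1.07 ± 0.032 on the log2 scale (adjusted p = 5.31e-14), and each knockdown lay on its own side of control. Hnrnpul2 was higher after RBPMS than after QKI knockdown by 1.13 ± 0.037 (5.71e-14) and after RBFOX2 than after QKI knockdown by 1.12 ± 0.037 (4.11e-14). Srrm3 and Srrm5 were lower after RBFOX2 than after QKI knockdown, by -2.47 ± 0.650 (0.00281) and -1.71 ± 0.528 (0.00866), on 7 against 37 counts for Srrm3. For Srrm3 after RBPMS knockdown, with 2 counts in 3 libraries, the ratio to QKI knockdown was 0.0580, with an exact counting interval of 0.00678 to 0.225. This interval also takes each count as a separate event and may be too narrow.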

How the results depend on the processing

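There were 30, 20 and 32 calls of members in RBPMS, RBFOX2 and QKI knockdown. Of these, 23, 15 and 24 held in every alternative that gave a value, and none changed sign. Up to 17 alternatives were applied to single members, which do not include glmTreat. Some gave no value for genes with few counts: Srrm3 had 13 in RBPMS and Srrm5 16 in QKI knockdown. The causes of the changes below were not tested beyond what each setting itself alters. In RBPMS knockdown the count past 2-fold was 2. It was 1 with a mean of at least 200 counts, in the fit of 6 libraries, with halved counts and in the normalised table. In QKI knockdown it was 2, and 1 with a mean of at least 200 counts and in the normalised table with a pseudocount of 10. The glmTreat test asks for a change above 0.3 on the log2 scale and not for 2-fold. It called 8, 6 and 9 members in RBPMS, RBFOX2 and QKI knockdown, which are not counts past 2-fold. Lower members in RBPMS knockdown were 8, 4 in the fit of 6 libraries and 5 to 9 when a library was left out (5 without control 1, control 3 or RBPMS 1). Higher members in RBFOX2 knockdown were 7, 12 with library totals alone and 12 or 13 in the normalised table. Between RBPMS and RBFOX2 knockdown the count past 2-fold was 1, 0 with library totals alone and 1 to 2 when a library was left out (2 without RBPMS 2), and lower members were 2, 7 with library totals alone and 1 to 4 when a library was left out (1 without any RBFOX2 library, 4 without RBPMS 1). Between RBPMS and QKI knockdown the count past 2-fold was 2 and 1 with library totals alone. Leaving out libraries in the direct contrasts was chosen after seeing the data.

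Values near 0 turned sign. Hnrnpul2 in RBFOX2 knockdown went from -0.02 to 0.039 with library totals alone, 0.0072 with a mean of at least 200 counts and 0.051 in the normalised table. Srrm5 in RBFOX2 knockdown went from 0.08 to -0.0479 and -0.042 in the normalised table and to a range of -0.23 to 0.35 when a library was left out. When a library was left out, Hnrnpul2 in RBPMS knockdown ranged from -0.025 to 0.032 and Srsf5 from -0.034 to 0.020.

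Replicate numbers did not pair the libraries: correlations of deviations ran from -0.17 to 0.14 over 18 pairs. With a replicate block, lower members between RBPMS and RBFOX2 knockdown were 1 in place of 2, and the other counts stayed within 1.5 times. Depth limits Srrm3, Srrm4, Srrm5, Srpk3, Srsf8 and Srsf12, and 3 libraries per group limit differences below about 0.1 on the log2 scale.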
